A study of Bos taurus with 3 samples.

Results

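In the rumen epithelium of 3 lactating Holstein cows, 213 of 20728 cells were rich in BPIFA2C and kept a mitochondrial share of at least 1%. These cells, called the members below, were chosen by measured values. A member had BPIFA2C at 10 or more per 10000 of its unique molecular identifiers (UMIs, counted transcript molecules), and the 13 protein-coding genes of the mitochondrial genome made up 1% or more of its UMIs. The members were 111 of the 3369 cells of cow 1 (3.29%), 50 of the 7401 cells of cow 2 (0.676%) and 52 of the 9958 cells of cow 3 (0.522%), a mean of 1.50% ± 1.56 (SD, n = 3 cows). Without cow 1 the mean was 0.599%. The share of cow 1 lay apart from those of the other 2 cows, which were closer to each other.

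All 3 adult cows belonged to 1 group with 1 condition, and each gave 1 droplet library of ventral rumen tissue that had been stripped of muscle and digested with EDTA and enzymes before sequencing. Comparisons are therefore between classes of cells within the same cows. The p-values measure how differences between classes vary from cow to cow, pooled over the classes of a fit, not the spread among cows. The libraries held 38912809, 94856658 and 104189434 UMIs for cows 1 to 3. Across libraries 35 cell barcodes occurred more than once, and 2 members carried one of them.

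BPIFA2C belongs to the BSP30 branch of the BPI fold-containing proteins, small secreted lipid-binding proteins of the mouth, the salivary glands and the upper airways, which multiplied in ruminants. The rumen wall is a stratified squamous epithelium in which basal cells divide, cells above them build desmosomes and keratin, and the outermost cells cornify and lose their nuclei and mitochondria. The cell layers are joined by gap junctions, through which small molecules pass from cell to cell, and the tissue takes up volatile fatty acids (VFA) and turns butyrate into ketone bodies. GJA1 (connexin 43) forms gap junction channels, and KRT6A is a keratin of stratified and stressed epithelia.

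BPIFA2C itself, which the rule used and which therefore has no test, had a median of 18.7, 18.1 and 22.5 per 10000 UMIs in the members of cows 1, 2 and 3. Its range over all members was 10.0 to 633 per 10000. The medians correspond to 30, 40.5 and 36 UMIs per cell, and only 3 members, all in cow 1, had fewer than 5. The members held 49.5% of all BPIFA2C UMIs of the series. Another 25.4% lay in 57 cells that met the BPIFA2C limit but had a mitochondrial share under 1% (31, 5 and 21 cells in cows 1 to 3), and 25.1% in 1553 cells with BPIFA2C UMIs at under 10 per 10000. The remaining 18905 cells had 0 BPIFA2C UMIs. Among cells that carried a DLK2 UMI and no GJA1 UMI, taken as cells in which BPIFA2C should be low, 3.84% had a BPIFA2C UMI (median depth 9779 UMIs), against 45.5% of cells with a GJA1 UMI (median depth 15760 UMIs). Thinning each cell to 3000 UMIs, here and below, leaves out cells with fewer UMIs, 88 and 67 of these. The shares were then 1.52% (exact 95% binomial interval 1.25 to 1.83) and 28.2% (26.3 to 30.2), where the intervals cover counting error only. The first of them was not alike across cows: before thinning it was 11.3% in cow 1, the cow with the most members, and 2.48% and 2.11% in cows 2 and 3, and after thinning 4.48%, 0.883% and 1.04%. Among cells with a GJA1 UMI the shares were 59.5%, 43.4% and 32.6% in cows 1 to 3. Both sets were chosen by GJA1, which most members carried, so the gap between their shares is only described.

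**Figure D1:**
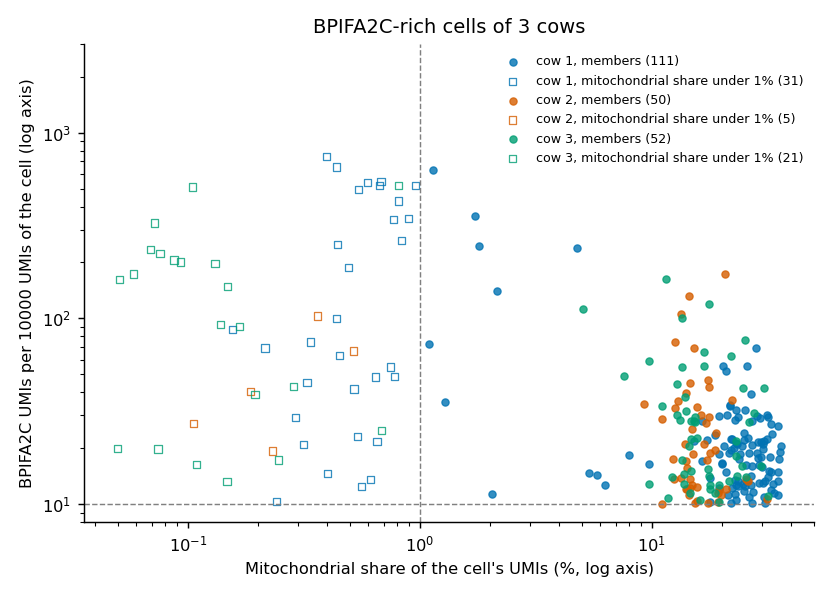
Each point is 1 BPIFA2C-rich cell, placed by its mitochondrial share (horizontal log axis, percent) and its BPIFA2C UMIs per 10000 (vertical log axis), with filled circles for the members, open squares for cells under 1% and 1 colour per cow. Dashed lines mark the limits of the rule. Most members sit above a mitochondrial share of 10%, and the 8 members between 1% and 5% are all from cow 1.

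The mitochondrial share, which the rule also used, had a median of 24.9% in the members of cow 1, 15.2% in cow 2 and 15.5% in cow 3. In cells with 0 BPIFA2C UMIs the medians were 15.7%, 10.7% and 12.3%, so that the members' median was the higher one in each cow. Of the 213 members, 108 had a share of 20% or more, 87 lay between 10% and 20%, 10 between 5% and 10% and 8 between 1% and 5%. Those 8 cells stood apart from the other members: they came from cow 1 alone, had a median of 1387 UMIs and 627 detected genes, and had a median of 190 BPIFA2C UMIs per 10000. Their summed level of KRT5, a keratin of basal keratinocytes, was 5.46 UMIs per 10000, against 37.3 in the 88 members of cow 1 with a share of 20% or more.

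At the limits of the rule the cells were as follows. The 33 members with 10 to 12 BPIFA2C UMIs per 10000 had 7.84 GJA1 UMIs and 13.3 KRT6A UMIs per 10000, and the 52 cells with 8 to 10, just outside, had 7.91 and 13.3. The pooled values were close, but those of single cows were not: KRT6A was 6.65, 14.8 and 24.4 just inside in cows 1 to 3 and 8.63, 20.1 and 11.6 just outside, higher inside in cow 3 and lower in cows 1 and 2. At the mitochondrial limit, 5 members had a share of 1% to 2%, all from cow 1, and 20 cells lay between 0.5% and 1%, with medians of 1403 and 2374 UMIs per cell. Their KRT6A levels were 117 and 105 UMIs per 10000. In the 17 of those 20 cells that came from cow 1 the level was 93.3. In cow 1 both sides of the limit thus lay above the KRT6A level of all members, 12.7.

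The members were deep cells. Their median depth was 17309, 20572 and 15215 UMIs per cell in cows 1 to 3, against 9304, 11713 and 9654 in cells with 0 BPIFA2C UMIs, and 52 members (24.4%) were among the 5% of their cow's cells with the most UMIs. Doublets, in which 2 cells share a droplet, are found among deep cells; no caller was run here, and the part of depth and of doublets in the results below was not tested beyond the counts given without those cells.

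The deposited cells were those the study kept as epithelial after removing other cell types by marker genes. Low counts of other cell types' markers were thus partly set beforehand, as was the abundance of epithelial keratins, and neither tests the members' identity. Markers of other cell types gave few UMIs in the members. All 5 smooth muscle genes searched for, ACTA2, MYH11, TAGLN, DES and CNN1, were at 0 UMIs in them, as were PTPRC, CSF1R and MS4A1 of immune cells, PECAM1, CDH5, KDR and CLDN5 of endothelium, and COL1A1, COL3A1, DCN and PDGFRA of fibroblasts. The summed level of the 8 immune genes was 0.0647 to 0.146 UMIs per 10000 in the members of the 3 cows and 0.0801 to 0.102 in cells with 0 BPIFA2C UMIs. The 5 endothelial genes summed to 0.0583 to 0.0719 against 0.0220 to 0.0466, with VWF the only one found in the members (20 UMIs in 17 members), and the 5 fibroblast genes were at or below 0.0144 in both classes. In the first comparison below, VWF was called higher (log2 fold change 1.19 ± 0.40, adjusted p = 0.029), as was the T cell gene CD3D on 7 UMIs in 6 members (3.12 ± 0.88, adjusted p = 0.0084). The call of VWF was lost when any cow was left out (adjusted p = 0.086, 0.20 and 0.086 without cows 1, 2 and 3), and that of CD3D without cow 2 (0.080) or cow 3 (0.19). CD74, CD3E and CD68 had 9, 6 and 5 UMIs in the members and did not pass the test. The gland genes BPIFB1 and SCGB1A1 were at 0, whereas the gland water channel AQP5 was present and is described below. Keratins of the epithelium were abundant: KRT5, KRT14 and KRT15 each had a UMI in more than 97% of members.

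The first comparison asked which genes other than BPIFA2C and the mitochondrial genes set the members apart from cells with 0 BPIFA2C UMIs in the same cows. UMIs were summed over the cells of a class in each cow, and edgeR's quasi-likelihood test with the cow as a block called a gene when its Benjamini-Hochberg adjusted p was below 0.05 and its change exceeded 0.36 on the log2 scale. Of 10247 genes tested, 1357 were higher in the members, 13.2% of those tested, and 1291 were lower, 12.6%, so that 25.8% were called in either direction. Of these, 1256 and 1253 had the same sign in each of the 3 cows. With only cells of 5000 to 20000 UMIs the counts were 883 and 849, and without the 5% of cells with the most UMIs 1074 and 1027. With cells thinned to 3000 UMIs, which left out 12 members and 419 cells with 0 BPIFA2C UMIs, they were 406 and 769. Of those calls 34.6% were higher, against 51.2% without thinning. Without cow 2 the lower genes numbered 776. Without the cow as a block the counts were 364 and 211, and KRT6B, KRT17, COX8B, IGFBP5, JUN, PDK4 and THBS1, described below, were among the genes that lost their call. Levels below are UMIs per 10000 UMIs of a class in 1 cow, counted without BPIFA2C and the mitochondrial genes, and each log2 fold change has its standard error (SE).

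**Figure D2:**
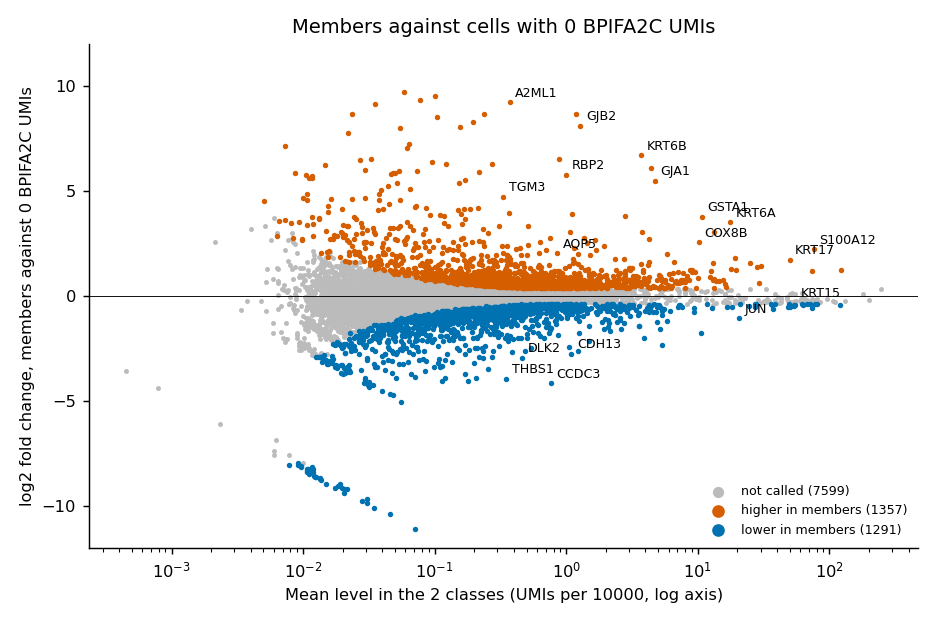
Log2 fold change of the members against cells with 0 BPIFA2C UMIs (vertical axis) by the mean level in both classes (horizontal log axis, UMIs per 10000), 1 point per gene, with 1357 genes called higher in orange, 1291 called lower in blue and the rest in grey. The connexins GJA1 and GJB2 and the keratins KRT6A and KRT6B lie high on the plot at levels far above the many low genes. The lowest points include the 34 genes called lower that had 0 UMIs in the members, whose fitted fold has no fixed size.

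Among connexins, GJA1 and GJB2 were higher, and GJB5 did not pass the test. GJA1 had 10.7, 9.32 and 7.66 UMIs per 10000 in the members of cows 1, 2 and 3, and 0.378, 0.149 and 0.148 in cells with 0 BPIFA2C UMIs. The classes did not overlap. The gene was higher by 5.50 ± 0.16 on the log2 scale (edgeR's quasi-likelihood test, adjusted p = 8.5e-21). In these same cells, the study had already described a BPIFA2C-positive cluster with high GJA1, KRT6A, KRT10 and S100A8. The study also reported GSTA1, TMEM79 and FABP4 as high there. Tests of these genes here therefore add no independent support. GJA1 was also broadly carried: 197 of 213 members (92.5%) had a GJA1 UMI, against 6.05% of cells with 0 BPIFA2C UMIs. At 3000 UMIs per cell the shares were 79.1% (72.8 to 84.5) and 2.41% (2.20 to 2.64).

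GJB2 (connexin 26), the other gap junction gene named, had 1.29, 2.10 and 4.28 UMIs per 10000 in the members and 0.00996, 0.00379 and 0.0174 in cells with 0 BPIFA2C UMIs. It was higher in all 3 cows, with a log2 fold change of 8.10 ± 0.18 (adjusted p = 1.2e-23). Its UMIs were less evenly spread than those of GJA1: 67 members (31.5%) had one, and 5 cells held 40.03% of them. GJB5 had 0.0431, 0.0665 and 0.0874 UMIs per 10000 in the members against 0.0752, 0.112 and 0.148 (log2 fold change -0.76 ± 0.32, adjusted p = 0.084). Of the 22 gap, tight and adherens junction genes tested, 9 were higher and 1 was lower, with a median log2 fold change of 0.58 beside -0.06 over all genes tested. The higher ones included the tight junction genes CLDN4, at 1.89, 5.63 and 2.29 UMIs per 10000 against 1.48, 3.00 and 0.563, and TJP3, a scaffold protein. The lower one was CDH3 (P-cadherin), the cadherin of basal keratinocytes, at 0.223, 0.0333 and 0.160 against 0.626, 0.338 and 0.434.

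Desmosomes anchor keratin filaments at cell borders. Of 11 desmosome genes tested, 7 were higher in the members and 1 was lower, with a median log2 fold change of 1.09. The plaque gene PKP1 had 0.877, 1.14 and 1.43 UMIs per 10000 against 0.286, 0.196 and 0.259 (log2 fold change 2.21 ± 0.14, adjusted p = 6.3e-13), and JUP (plakoglobin) had 4.44, 4.61 and 4.44 against 2.14, 1.61 and 1.75. DSG2, the desmoglein of simple epithelia and basal layers, was the lower one, at 0.101, 0.0222 and 0.0146 against 0.325, 0.114 and 0.238.

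Keratins divided by type. KRT6A had 12.7, 28.3 and 55.9 UMIs per 10000 in the members and 1.62, 2.03 and 4.45 in cells with 0 BPIFA2C UMIs. It was higher in each cow, with a log2 fold change of 3.51 ± 0.15 (adjusted p = 4.8e-17), and in both classes its level was lowest in cow 1 and highest in cow 3. KRT6B, whose reads can be hard to tell from those of its near-copy KRT6A, had 0.108, 3.73 and 18.2 UMIs per 10000 against 0.00498, 0.0511 and 0.120 (log2 fold change 6.71 ± 0.28). In cow 1 KRT6B was found in only 4 of 111 members, against 33 of 50 in cow 2 and 39 of 52 in cow 3. KRT17, which pairs with KRT6 proteins, had 37.7, 62.6 and 135 against 16.1, 20.4 and 28.4 (log2 fold change 1.72 ± 0.16).

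The keratins of the basal layer did not follow. KRT5 had 38.0, 36.6 and 63.0 UMIs per 10000 in the members against 45.3, 44.5 and 80.1 (log2 fold change -0.27 ± 0.17, adjusted p = 0.28), and KRT14 had 21.4, 38.4 and 61.6 against 24.0, 31.6 and 55.7 (adjusted p = 0.80). KRT15 had 62.2, 33.4 and 53.4 against 57.3, 64.1 and 60.7 (adjusted p = 0.38), lower in cows 2 and 3 and not in cow 1. None of the 3 passed the test. KRT18, a keratin of simple epithelia, gave 4 UMIs in all members and was lower. Over the list, 5 of 13 keratins tested were higher and 4 lower, with a median log2 fold change of -0.27.

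Genes of late differentiation and the cornified envelope had the largest median change of the lists with 10 or more genes tested: 25 of 32 tested were higher and 0 were lower, with a median log2 fold change of 2.71. A2ML1, a secreted protease inhibitor of the granular layer, had the largest fold change by the naming rule, at 0.834, 0.588 and 0.801 UMIs per 10000 against 0.00362, 0.000653 and 0.000471 (log2 fold change 9.23 ± 0.36, adjusted p = 1.2e-17). It rested on few cells, since 38 members (17.8%) carried an A2ML1 UMI and 5 cells held 52.7% of the 224 UMIs. TGM3, a transglutaminase that cross-links the envelope, had 0.510, 0.832 and 0.568 against 0.0263, 0.0230 and 0.0286 (log2 fold change 4.72 ± 0.20), and 73 members (34.3%) carried it. CSTB (cystatin B), a protease inhibitor of the envelope, had 1.28, 1.61 and 3.28 against 0.154, 0.0700 and 0.206, in 119 members (55.9%).

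Others of the list were found in most members. TMEM79, a membrane protein of lamellar granule transport, had 2.37, 2.15 and 2.56 UMIs per 10000 against 0.414, 0.319 and 0.331 (log2 fold change 2.76 ± 0.10, adjusted p = 4.1e-18) and was detected in 176 members (82.6%). LYPD3, a surface protein of suprabasal keratinocytes, had 2.14, 3.23 and 2.97 against 0.553, 0.696 and 0.572, in 169 members (79.3%). SPINK5, the protease inhibitor of the outermost living layer, was instead rare, with 46 UMIs in 12 members, 33 of them in cow 3. ANXA2 did not pass the test, at 9.70, 8.57 and 14.3 against 10.9, 9.84 and 16.1 (adjusted p = 0.42).

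The other genes that the rule for naming picked by size had mixed roles. RBP2, a retinol-binding protein known from the intestine, had 1.88, 2.77 and 1.19 UMIs per 10000 against 0.0566, 0.0331 and 0.0255 (log2 fold change 5.78 ± 0.16) and was found in 130 members (61.0%). PHGR1, also best known from the gut, had 2.11, 0.953 and 2.17 against 0.0426, 0.00457 and 0.0207. WFDC18, of the family of whey acidic protein-type inhibitors, had 3.57, 11.02 and 11.5 against 0.0797, 0.123 and 0.173 (log2 fold change 6.07 ± 0.17), and 95 members (44.6%) carried it. CALML5, a calcium-binding protein of differentiating keratinocytes, had 0.0791, 0.266 and 1.28 against 0.00407, 0.00575 and 0.0104, with 61.8% of its UMIs in 5 cells. ENSBTAG00000048835, for which no symbol was at hand, had 0.927, 1.51 and 4.65 against 0.00905, 0.00588 and 0.00647 in 40 members.

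**Figure D3:**
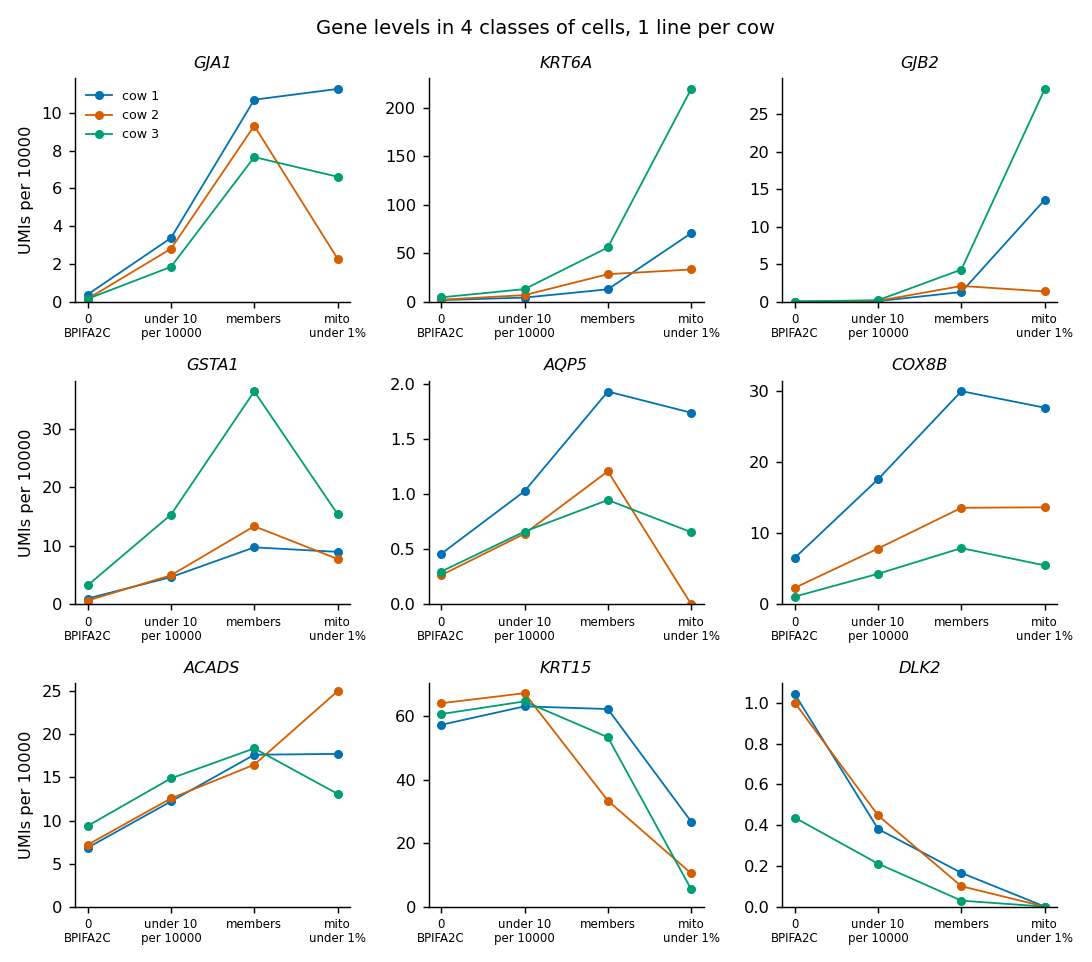
Levels of 9 genes (vertical axes, UMIs per 10000 without BPIFA2C and mitochondrial genes) in 4 classes of cells (horizontal axis): cells with 0 BPIFA2C UMIs, cells with BPIFA2C under 10 per 10000, the members, and BPIFA2C-rich cells with a mitochondrial share under 1%, with 1 line per cow. GJA1 stands at 7.66 to 10.7 in the members against 0.148 to 0.378 in cells with 0 BPIFA2C UMIs. DLK2 has 0 UMIs in the last class, which holds few UMIs and in cow 2 is only 5 cells. The difference in DLK2 between the members and that class did not pass edgeR's quasi-likelihood test (adjusted p = 0.34).

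Among secreted defence proteins, 8 of 15 tested were higher and 4 lower, with a median log2 fold change of 2.23. The abundant ones were S100 proteins, calcium-binding proteins released by stressed epithelium: S100A12 had 83.2, 141 and 152 UMIs per 10000 against 25.7, 24.8 and 28.0 (log2 fold change 2.23 ± 0.20, adjusted p = 7.1e-10), and S100A8 had 17.0, 19.4 and 34.7 against 3.202, 1.81 and 3.28. S100A9, the partner of S100A8, had 3.21, 5.01 and 7.53 against 0.299, 0.372 and 0.390, but 59.7% of its UMIs were in 5 cells. Over the S100 proteins as a list, 6 of 12 were higher and 1 lower. RNASE4, a secreted ribonuclease, was lower at 3.23, 2.96 and 3.19 against 5.35, 5.76 and 5.00.

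Single cells decided some of the rarer defence genes. All 27 UMIs of the beta-defensin LAP came from 1 member of cow 1 with a mitochondrial share under 5%, and 39 of 40 UMIs of the protease inhibitor PI3 came from 1 member, so both calls rest on 1 cell. Without cow 1, PI3 had a log2 fold change of 0.88 and did not pass the test (adjusted p = 0.83). BPIFA2A, another BSP30 gene and the nearest relative of BPIFA2C analysed here, had 0.0647, 0.0222 and 0.291 UMIs per 10000 against 0.00136, 0.000261 and 0.000942 (log2 fold change 7.24 ± 0.75, adjusted p = 9.7e-09). Only 9 members (4.23%) carried a BPIFA2A UMI, and 1 cell held 61.3% of the 31. Reads of the 2 genes may be assigned to one another, so that the BPIFA2A level is uncertain. Of the further family genes listed, BPIFB1, BPIFA1, BPIFB4, BPIFB6 and BPIFC were at 0 UMIs in the members. By order on chromosome 13 of the RefSeq assembly ARS-UCD2.0, BPIFA2C lies between the protein-coding LOC112441508 and a pseudogene, with BPIFA2D next. That assembly is not the build of the files.

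AQP5, a water channel of salivary and sweat glands, was higher in the members: 1.93, 1.21 and 0.947 UMIs per 10000 against 0.457, 0.263 and 0.296 (log2 fold change 2.05 ± 0.11, adjusted p = 7.4e-15). It was spread over 163 members (76.5%), against 19.7% of cells with 0 BPIFA2C UMIs.

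Of 25 genes of VFA metabolism and ketone bodies, 15 were higher and 2 lower, with a median log2 fold change of 0.59. ACADS, which oxidizes butyryl-CoA, had 17.6, 16.5 and 18.4 UMIs per 10000 against 6.83, 7.18 and 9.37 (adjusted p = 1.6e-08), and MCEE, of the propionate route, had 1.90, 1.52 and 1.81 against 0.529, 0.489 and 0.521. HADH did not pass the test (8.42, 8.23 and 8.62 against 6.64, 7.32 and 8.90), and PDK4, which restrains pyruvate oxidation, was lower at 0.474, 0.288 and 0.175 against 2.13, 3.84 and 0.408.

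Of 26 genes of VFA transport and pH regulation, 12 were higher and 4 lower, with a median log2 fold change of 0.25. SLC16A1 (MCT1), a monocarboxylate transporter, had 13.3, 6.12 and 9.51 UMIs per 10000 against 4.91, 3.22 and 4.95 (log2 fold change 1.14 ± 0.13), and BSG (basigin), its chaperone, had 28.5, 25.7 and 27.0 against 10.2, 10.9 and 14.5. SLC9A2 and SLC9A3, sodium-proton exchangers, were low but higher, with 75 and 26 UMIs in all members. SLC16A7, another monocarboxylate transporter, had 0 UMIs in the members and 0.0887, 0.0335 and 0.0613 per 10000 in cells with 0 BPIFA2C UMIs. Against 3 UMIs per cow as the floor, it was lower by the test, at least 4.11-fold, 1.01-fold and 1.40-fold in cows 1 to 3.

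Among lipid genes, 13 of 29 tested were higher and 3 lower, with a median log2 fold change of 0.51. The fatty acid carrier FABP5 had 32.1, 36.7 and 53.3 UMIs per 10000 against 12.4, 12.8 and 22.7, and FABP4, its relative of fat cells, had 4.28, 2.48 and 3.04 against 0.553, 0.792 and 0.554 (log2 fold change 2.41 ± 0.15). FABP4 was present in 99 members (46.5%). IDI1 of the sterol pathway was higher at 1.50, 1.28 and 1.78 against 0.535, 0.449 and 0.736, and PLIN2, which coats lipid droplets, did not pass the test.

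Detoxification and glutathione genes were higher in 19 of 37 cases and lower in 3, with a median log2 fold change of 0.39. GSTA1, a glutathione transferase, had 9.73, 13.3 and 36.5 UMIs per 10000 against 0.963, 0.607 and 3.21 (log2 fold change 3.78 ± 0.17, adjusted p = 2.1e-16) and was found in 200 members (93.9%), against 22.9% of cells with 0 BPIFA2C UMIs. MGST3 had 33.9, 40.8 and 36.6 against 10.4, 12.6 and 15.9, and PRDX6, a peroxiredoxin, had 12.5, 28.0 and 52.8 against 6.24, 6.16 and 10.2. GSTT1, another transferase, was lower at 0.0359, 0.0222 and 0.146 against 0.319, 0.494 and 0.615, while the metal-binding MT2A did not pass the test.

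Of 11 retinoid genes, 4 were higher and 1 lower. Beside RBP2, the retinaldehyde dehydrogenase ALDH1A1 had 11.3, 2.87 and 4.66 UMIs per 10000 against 5.62, 1.73 and 3.33, and CYP26A1, which degrades retinoic acid, had 2.84, 3.67 and 3.80 against 1.50, 2.80 and 1.83. DHRS3, which turns retinal back to retinol, was lower at 0.460, 0.244 and 0.277 against 1.35, 1.07 and 1.03. RBP4 did not pass the test, and its level was higher in cow 1 and lower in cows 2 and 3.

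Nuclear genes of the respiratory chain were higher in 55 of 81 cases and lower in 2, with a median log2 fold change of 0.55. They were not used by the rule, which read only the mitochondrial genome, but they belong to the same complexes. COX8B, a cytochrome oxidase subunit known from heart and muscle, was among them, at 30.0, 13.6 and 7.90 UMIs per 10000 against 6.52, 2.29 and 1.06 (log2 fold change 2.57 ± 0.14, adjusted p = 7.4e-15), and 96.2% of members carried it. CYCS (cytochrome c) had 5.41, 6.19 and 7.01 against 2.29, 2.27 and 2.12. COX7A1, the muscle form of another subunit, was lower at 0.201, 0.0443 and 0.160 against 0.657, 0.163 and 0.467. Cytosolic ribosomal protein genes moved the other way in a smaller measure: 24 of 78 were lower and 1 was higher, with a median log2 fold change of -0.27.

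**Figure D4:**
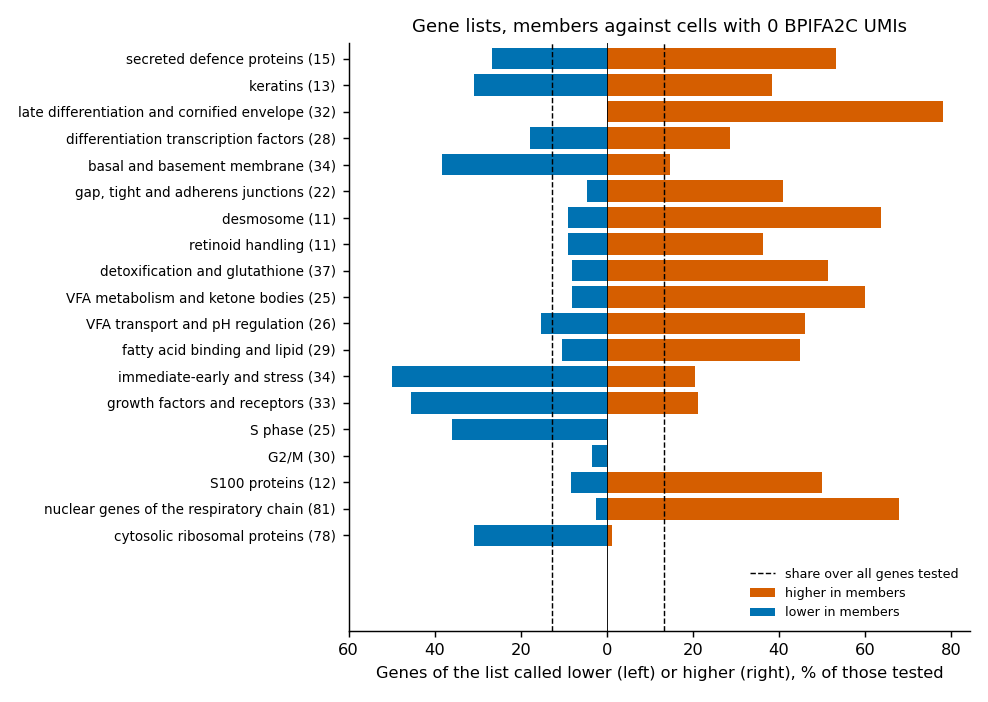
For each list of genes with at least 10 tested (number in brackets), the percentage called higher in the members (orange, right) and lower (blue, left) against cells with 0 BPIFA2C UMIs. Dashed lines give the shares over all genes tested, 13.2% higher and 12.6% lower; late differentiation genes extend farthest to the right, with 25 of 32 higher, and immediate-early and stress genes farthest to the left, with 17 of 34 lower.

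Genes of the basal layer and the basement membrane were lower in 13 of 34 cases and higher in 5, with a median log2 fold change of -0.54. DLK2, a delta-like ligand of the Notch family, stands in this list, although the study used it as a marker of granule cells, above the basal layer. It had 0.165, 0.0998 and 0.0291 UMIs per 10000 in the members against 1.04, 1.00 and 0.437 (log2 fold change -2.94 ± 0.21, adjusted p = 9.2e-12), and the Notch ligand DLL1 had 0.165, 0.0665 and 0.0583 against 0.728, 0.843 and 0.460. SFN (stratifin), a 14-3-3 protein of stratifying keratinocytes that the list also holds, went the other way, at 7.33, 10.0 and 10.6 against 2.67, 2.57 and 1.88. Only 20 members (9.39%) carried a DLK2 UMI, against 39.2% of cells with 0 BPIFA2C UMIs.

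The largest falls picked by the naming rule included other surface and matrix genes. CCDC3, a secreted protein, had 0.0431, 0.0887 and 0.146 UMIs per 10000 against 1.51, 1.78 and 0.994 (log2 fold change -4.14 ± 0.24, adjusted p = 1.2e-13). CDH13 (T-cadherin) had 0.273, 0.244 and 0.350 against 2.13, 1.72 and 1.86, and BCAM, a laminin receptor, had 0.208, 0.188 and 0.597 against 1.37, 1.13 and 2.83. CAVIN1, of caveolae, had 0.173, 0.0998 and 0.233 against 1.09, 0.718 and 0.935. The matrix protein THBS1 had 0.0575, 0.0222 and 0.0728 against 1.26, 0.602 and 0.0883; in cow 3 its 2 levels lay close together.

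Growth factor and receptor genes were lower in 15 of 33 cases and higher in 7, with a median log2 fold change of -0.72. PTHLH, the parathyroid hormone-like factor of keratinocytes, gave 7 UMIs in all members and was lower. FGFBP1, which carries fibroblast growth factors, was higher at 4.49, 6.51 and 5.32 UMIs per 10000 against 1.45, 2.39 and 2.02 (log2 fold change 1.51 ± 0.10, adjusted p = 4.5e-13). IGFBP5, which binds insulin-like growth factors, had 7.33, 2.24 and 3.54 against 1.86, 1.42 and 1.73 (log2 fold change 1.33 ± 0.17, adjusted p = 4.3e-07). Its level in the members of cow 1 was well above that in the other cows. In the 25 members with BPIFA2C at 50 or more per 10000 it was 1.11, 0.357 and 1.29, below the cells with 0 BPIFA2C UMIs in each cow.

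Of 28 transcription factors of differentiation, 8 were higher and 5 lower, with a median log2 fold change of 0.14. GRHL1, a grainyhead factor that acts on desmosomal cadherins, had 0.230, 0.222 and 0.189 UMIs per 10000 against 0.0235, 0.0272 and 0.00918 (log2 fold change 3.47 ± 0.31). KLF5 was higher by a log2 fold change of 0.57 ± 0.10, ID3 was lower on 3 UMIs in all members, and PPARG did not pass the test.

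Immediate-early and stress genes, which also answer to tissue dissociation, were lower in 17 of 34 cases and higher in 7, with a median log2 fold change of -0.50. JUN had 15.2, 17.5 and 5.32 UMIs per 10000 in the members against 29.2, 46.0 and 10.0 (log2 fold change -1.05 ± 0.19, adjusted p = 7.5e-05), and ATF3 had 1.17, 2.55 and 0.335 against 5.31, 6.05 and 0.350. Of the 7 higher genes, 6 were heat shock or chaperone genes, BAG3, HSPH1, HSPA6, HSPE1, HSPA8 and HSPD1, and the last was NR4A1. HSPA8, a constitutive chaperone, had 8.55, 9.04 and 8.23 against 6.17, 4.96 and 6.35 (log2 fold change 0.60 ± 0.12), and HSPE1, of mitochondria, had 10.4, 7.395 and 7.33 against 5.08, 4.68 and 5.68. The heat shock genes HSPA1A (17.0, 15.4 and 7.997 against 18.8, 10.4 and 8.13) and HSPB1 did not pass the test. ATF3 was at nearly the same level in both classes of cow 3.

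Of 25 S phase genes, which mark DNA synthesis, 0 were higher and 9 lower, with a median log2 fold change of -0.73, and of 30 genes of G2 and mitosis, 0 were higher and 1 lower. PCNA, the DNA polymerase clamp, had 0.280, 0.200 and 0.626 UMIs per 10000 against 0.468, 0.567 and 1.40 (log2 fold change -1.05 ± 0.20, adjusted p = 0.00018). TOP2A had 0.863, 0.122 and 0.947 against 0.768, 0.163 and 1.31 and did not pass the test. MKI67, a mark of cycling cells, had a UMI in 26 members (12.2%) and in 11.2% of cells with 0 BPIFA2C UMIs, and at 3000 UMIs per cell in 4.98% (2.41 to 8.96) and 6.19% (5.85 to 6.55), which counting error does not separate. The cows differed in direction: before thinning the shares were 14.4% against 8.82% in cow 1, 8% against 4.46% in cow 2 and 11.5% against 16.7% in cow 3. After thinning they were 7% against 5.32% in cow 1 and 3.92% against 9.51% in cow 3, and nearly equal in cow 2 (2% against 1.99%).

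The members were not uniform. When they were divided by their BPIFA2C level, KRT6A in the members with 10 to 20 per 10000 was 8.29, 24.2 and 47.5 UMIs per 10000 in cows 1 to 3, and in those with 50 or more it was 67.0, 48.7 and 84.7. KRT15 went from 66.1, 39.7 and 74.9 to 21.9, 6.67 and 20.2 over the same bins, and KRT5 from 42.2, 40.7 and 72.03 to 15.3, 11.4 and 32.7. The direction was the same in each cow. GJB2 went from 0.289, 0.943 and 2.38 to 11.3, 8.10 and 10.8, and S100A12 from 68.1, 120 and 135 to 199, 221 and 248. GJA1 was 10.1, 7.41 and 6.97 in the first bin and 18.4, 14.8 and 9.37 in the last, also higher in each cow. By contrast, MGST3 was 34.9, 40.4 and 34.3 in the first bin and 32.6, 46.9 and 38.7 in the last. The bins hold 113, 75 and 25 members, and the last has 10, 5 and 10 of them per cow. In cow 1 the median mitochondrial share of that last bin was 3.45% and its median depth 2146 UMIs, against 14.5% and 15.1% in cows 2 and 3. These values are given as a description, with no test.

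**Figure D5:**
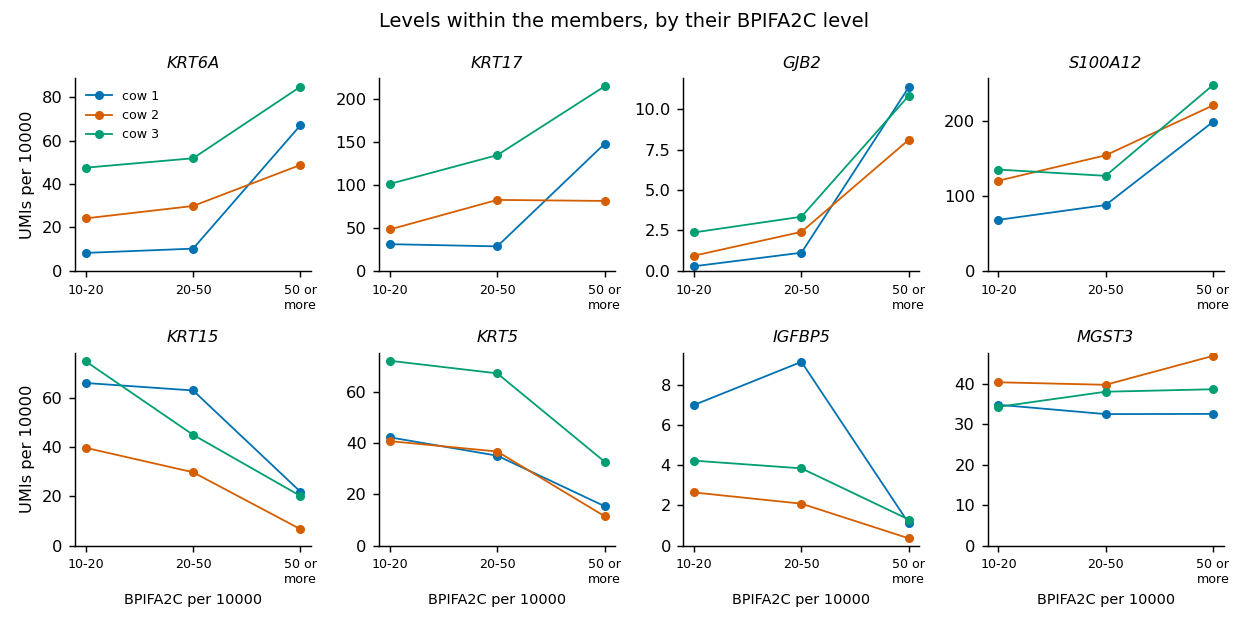
Levels of 8 genes (vertical axes, UMIs per 10000) in members with BPIFA2C at 10 to 20, 20 to 50 and 50 or more per 10000 (horizontal axis), with 1 line per cow. From the first to the last bin KRT6A, KRT17, GJB2 and S100A12 go up in each cow, KRT15, KRT5 and IGFBP5 go down, and MGST3 stays between 32.5 and 46.9.

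The second comparison set the members beside the cells that met the same BPIFA2C limit but had a mitochondrial share under 1%. The classes were not matched for BPIFA2C, which had a median of 87.3 per 10000 in these cells against 18.8 in the members, and several genes below also varied with BPIFA2C among the members. These cells had a median depth of 3206 UMIs per cell, against 17597 in the members, and the test rests on cows 1 and 3, because cow 2 had only 5 such cells, under the minimum of 10. Of 10247 genes, 222 (2.17%) were higher in the members and 240 (2.34%) lower, 4.51% in all. Without the cow as a block the counts were 35 and 51. The median log2 fold change over all genes was 0.53, so that changes are to be read against this shift. The shift itself depended on the fit: it was 0.21 with DESeq2, 0.04 with only these classes in the fit and 1.09 without cow 1. Of the calls 48.1% were higher, against 33.1% with DESeq2, 61.3% with all genes in the library sizes and 72% (77 genes lower) with cells thinned to 3000 UMIs. Thinning left out 26 of the 57 cells under 1%, so that 15 and 13 remained in cows 1 and 3. Without cow 3 the counts were 100 and 84, but the class under 1% is then a single cow, which is assumed to vary like the other classes.

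GJA1 did not pass the test between these 2 kinds of BPIFA2C-rich cells, with 10.7 and 7.66 UMIs per 10000 in the members of cows 1 and 3 against 11.3 and 6.62 (log2 fold change 0.07 ± 0.21, adjusted p = 0.87). KRT6A was lower in the members, at 12.7 and 55.9 against 70.6 and 219 (log2 fold change -2.20 ± 0.16, adjusted p = 3.7e-11). The genes of late differentiation went the same way, with 0 of 32 higher in the members and 16 lower. SPINK5 had 0.0431 and 0.481 against 4.97 and 9.68 (log2 fold change -5.18 ± 0.34), PIP (prolactin-induced protein, a secreted protein of glands) had 0.0575 and 0.0874 against 2.16 and 2.62, and LYPD2, a relative of LYPD3, had 0.115 and 0.0874 against 3.32 and 2.84. Of the keratins, KRT5, KRT15 and KRT19 were higher in the members, and KRT6A, KRT6B, KRT14, KRT17 and KRT78 lower. KRT15 stood at 62.2 and 53.4 against 26.8 and 5.46, and KRT14 at 21.4 and 61.6 against 31.0 and 320, where the difference lay mostly in cow 3.

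Genes of the basal layer were higher in the members in 9 of 34 cases and lower in 3. LAMB3, a laminin chain of the basement membrane, had 0.891 and 0.510 UMIs per 10000 in the members and 0 UMIs in the other class, which is at least 3.58-fold and 2.34-fold higher in cows 1 and 3 against a floor of 3 UMIs. Its adjusted p was 0.0064, and it did not pass the test without cow 1 (0.073) or cow 3 (0.066), where the same assumption on a single cow holds. Against cells with 0 BPIFA2C UMIs, LAMB3 was instead called lower in the members, as it was among cells with a GJA1 UMI below. ENSBTAG00000052759, for which no symbol was at hand, had 8.29 and 3.73 against 0 UMIs, at least 33.3-fold and 17.1-fold higher. It was found in 197 members, and cells with 0 BPIFA2C UMIs had a level near theirs, 9.48 and 3.27 in cows 1 and 3. WSB1, of a ubiquitin ligase, and KAT6B, a histone acetyltransferase, were also at 0 UMIs in the other class of cows 1 and 3. In all, 25 of the 222 higher genes were at 0 there. Of 81 nuclear genes of the respiratory chain 4 were higher and 0 lower, and of 25 genes of VFA metabolism 0 were called in either direction.

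The third comparison was with other gap junction-positive cells: 197 members with a GJA1 UMI against 1122 cells with a GJA1 UMI, 0 BPIFA2C UMIs and a mitochondrial share of 1% or more. Here the depths were closer, with medians of 17402, 20578 and 16313 UMIs in the members and 13977, 17502 and 13426 in the other cells. The classes were not matched for GJA1 itself. Its level, cow by cow, was 11.2, 9.44 and 8.36 in these members against 2.44, 1.99 and 2.21 in the other cells. The part of this GJA1 gap in the differences between the classes was not tested. Of 9882 genes tested, 337 (3.41%) were higher in the members and 212 (2.15%) lower, 5.56% in all. The counts were 119 and 84 with cells of 5000 to 20000 UMIs, 197 and 136 without the 5% of cells with the most UMIs, and 223 and 125 without cow 1. They were 95 and 71 with cells thinned to 3000 UMIs, and 37 and 6 without the cow as a block. The comparison shares its members with the first one, so the 2 are not independent.

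Among GJA1-positive cells the members again had more KRT6A, at 13.2, 28.7 and 60.2 UMIs per 10000 against 3.44, 5.38 and 14.5 (log2 fold change 2.19 ± 0.11, adjusted p = 1.2e-11), and more GJB2, at 1.34, 2.12 and 4.66 against 0.0239, 0.0315 and 0.174 (log2 fold change 5.26 ± 0.22). GJB5 was lower, at 0.0225, 0.0673 and 0.0795 against 0.105, 0.145 and 0.161 (log2 fold change -1.31 ± 0.34, adjusted p = 0.024). WFDC18 had 3.73, 11.2 and 12.5 against 0.197, 0.523 and 0.596. A2ML1 had 0.872, 0.595 and 0.874 against 0.0120, 0.00525 and 0.00548, where the other cells gave only 4, 3 and 3 UMIs. Late differentiation genes were higher in 16 of 27 cases and lower in 0. Detoxification genes were higher in 8 of 36 and lower in 4, and GSTA1 had 9.97, 13.5 and 37.4 against 3.42, 4.24 and 17.4.

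Of 81 nuclear genes of the respiratory chain 3 were higher and 1 lower, of 78 ribosomal protein genes 0 were higher and 1 lower, and of 25 genes of VFA metabolism 6 were higher and 1 lower. Of 26 genes of VFA transport and pH regulation, 4 were higher (SLC9A3, SLC9A2, AQP3 and SLC14A1) and 0 lower. SLC16A1 and BSG were not called here. The transport list summed to 78.2, 58.5 and 61.2 UMIs per 10000 in the members against 59.7, 61.3 and 64.6. Of 25 lipid genes 5 were higher and 2 lower, and FABP5 was not called. The genes with the largest falls by the naming rule were IGFBP6, at 0.120, 0.146 and 0.477 UMIs per 10000 against 0.655, 0.623 and 1.52, CAVIN1, CDH13 and BCAM. TMSB10 (thymosin beta 10), which binds actin monomers, had 2.79, 4.95 and 6.85 against 9.59, 11.9 and 13.5 (log2 fold change -1.27 ± 0.14, adjusted p = 1.6e-06). FABP4 and MKI67 did not pass the test.

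Of the 213 members, 16 had no GJA1 UMI (8, 1 and 7 in cows 1 to 3). They were shallower, with a median of 8595 UMIs against 17807 in the members with one, and their BPIFA2C median was 22.1 per 10000 against 18.8.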

How the data were processed

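Tissue of 3 cows was sequenced as 1 droplet library each (Chromium 3' chemistry). The authors made the deposited UMI counts with Cell Ranger 3.1.0, kept cells by genes, UMIs and mitochondrial share, and named DoubletFinder for doublets. Whether the doublets were removed is not given in the sources used here, and no caller was run. The authors then removed other cell types by marker genes and clustered the epithelial cells again. They also deposited natural log values of the same cells, used only to name the 19533 rows of the counts, which they matched within 1e-06. The barcode suffix gave the cow. BPIFA2C and the 13 mitochondrial genes were left out of tests and library sizes. UMI sums per cow and class (10 cells or more) were tested in R 4.3.3 with edgeR 4.0.16 (TMM, filterByExpr, quasi-likelihood, cow as block, Benjamini-Hochberg), with DESeq2 1.42.0 as an alternative. The same cows supplied both classes of each comparison, and the deviations of a cow's classes correlated at 0.501, 0.358 and 0.395. The procedure was tested on simulated counts without a cow effect, which cannot test the cow block or calls that rest on few cells. Named genes were those with the largest and smallest fold changes among genes called, with 1 sign in each cow and at least 0.5 UMIs per 10000 in the higher class, GJA1, KRT6A, and up to 7 per list by level or fold change; the within-member bins, MKI67, the family genes of BPIFA2C, the keratins of the second comparison other than KRT6A, GJB5, the higher heat shock genes, and GSTA1 and FABP4 in the third were added after values were seen. The transport and lipid lists of the third comparison were also added after values were seen. Members and lists were chosen with earlier results of these data known. Intervals and floors cover counting error only.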

Additional observations from a re-analysis of the deposited data

How the results depend on the processing

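The mean share of members per cow, 1.50% with an SD of 1.56 that exceeds it, was 2.83% (404 members) with a BPIFA2C minimum of 5 per 10000, 0.681% (100 members) with a minimum of 20, and 0.599% to 1.99% when each cow was left out in turn. Against cells with 0 BPIFA2C UMIs, 1357 genes were higher and 1291 lower. The counts were 364 and 211 without the replicate block, 883 and 849 with cells of 5000 to 20000 UMIs, 406 and 769 with cells thinned to 3000 UMIs and 510 and 642 with a log2 fold change above 1. Leaving out each cow gave 1010 to 1056 higher and 776 to 1588 lower. Against BPIFA2C-rich cells under 1%, the 222 and 240 genes became 35 and 51 without the replicate block, 77 lower with thinned cells, 141 higher with a BPIFA2C minimum of 20 per 10000, and 100 to 206 higher and 84 to 214 lower with each cow left out (without cow 1 or 3 the class under 1% is a single cow, assumed to vary like the other classes); with cells of 5000 to 20000 UMIs this comparison could not be fitted. Among cells with a GJA1 UMI, the 337 and 212 genes became 37 and 6 without the replicate block, 119 and 84 with cells of 5000 to 20000 UMIs, 95 and 71 with thinned cells, 197 and 136 without the 5% of cells with the most UMIs, 151 and 89 with a log2 fold change above 1, 349 lower with no filter on low counts, and 223 to 296 higher and 125 to 238 lower with each cow left out. Beyond thinning, which leaves fewer UMIs and fewer cells, and the higher fold threshold, the cause was not tested. Of 170 named values, 57 lost their call without the replicate block, 21 with the higher fold threshold and 7 with DESeq2. With thinned cells, where some could not be fitted, 133 stayed on their side of the threshold, 7 gained a call and 13 lost it. Without cows 1, 2 and 3, 10, 8 and 5 named values lost it. Changes of sign were sought only among named values called as reported or under the alternative. They were LAP at -2.94 with a mitochondrial minimum of 5%, where its only cell is left out, and UBE2C at -0.96 with a BPIFA2C minimum of 20 per 10000. With a BPIFA2C minimum of 5 per 10000 they were RRM1 at 0.16 and TOP2A at 0.43. Of these, LAP and RRM1 were called as reported and not under the alternative, and TOP2A and UBE2C passed the adjusted p threshold (0.047 and 0.042) under the alternative alone. The cells under 1% gave small sums, 123345, 22116 and 140633 UMIs in cows 1 to 3, and the sum of cow 2 entered no fit.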

Other observations

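The 1553 cells with BPIFA2C UMIs at under 10 per 10000 (676, 443 and 434 in cows 1 to 3) were compared with the members and the cells with 0 BPIFA2C UMIs as a description, with no test, since BPIFA2C defines all 3 classes. GJA1 was at 3.37, 2.80 and 1.84 UMIs per 10000 in them, FABP4 at 2.37, 2.29 and 2.06, GSTA1 at 4.63, 4.94 and 15.3 and DLK2 at 0.381, 0.448 and 0.211, each between the levels of the other classes in each cow. Of the 1357 genes higher in the members, 804 (59.2%) had their level in these cells between those of the other classes in each cow, and so had 913 (70.7%) of the 1291 lower genes. Over all 10247 genes tested, 9.29% had the first order and 13.2% the reverse. The call already sets the order of the outer classes, which most genes tested need not have, so nothing is read from that gap and the counts describe only where the middle class lay. Chosen after their values were seen, KRT15 stood at 63.1, 67.2 and 64.7 in these cells, above both neighbouring classes in each cow, and A2ML1 at 0.00993, 0.00463 and 0, between the other classes in cows 1 and 2 and below both in cow 3. Most of these cells (1231) had fewer than 5 BPIFA2C UMIs, and their median depth was 14765 UMIs against 10255 in cells with 0 BPIFA2C UMIs. The part of low counts or depth in these levels was not tested.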
